A study of Mus musculus with 21 samples.

Results

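The genes described here are interferon-stimulated genes, transcripts that type I interferons (interferon alpha and beta) switch on in most cells. A list of 40 symbols was taken, and a gene was kept when its deposited TPM (a transcript's share of its library, corrected for transcript length) reached 1 in at least 3 libraries with at least 7000 genes at that level. The rule kept 36 of the 40, among 9592 genes that passed the same filter and 23415 listed in all. The least frequent gene inside the rule was PARP12, which reached 1 TPM in 3 libraries, followed by MX1 in 5. Just outside lay IFIT2, with values of 2.32 and 1.11 TPM in 2 libraries, and DDX60, with 1.06 and 1.01. OASL1 reached 1.95 TPM in 1 library, and OAS2 stayed at 0.5 TPM or below. RSAD2 passed through the 6 libraries of a single culture, with IL-1b, IL-6 and IL-23, and IFIT3 and RTP4 passed with those 6 and 1 other. Their high level there was thus needed for them to be counted at all, and counts of genes below refer to the 36 that passed, not to the whole list.

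The libraries were made by SMART-Seq2, a full-length RNA-seq method for small inputs, from mouse CD4 T cells, in a series on colitis and the receptor for IL-23 in Th1-like cells. Naive cells came from the spleen and lymph nodes of mice with 1 normal and 1 reporter allele of Il23r, and were activated on plates with antibodies to CD3 and CD28 for 5 days. They were then sorted by eGFP, which is made from the reporter allele when the Il23r locus is transcribed. All groups shared this genotype and activation, and the reporter allele gives no working receptor, so each cell had at most 1 functional copy of Il23r. The culture called IL-12 below held 20 ng/ml of IL-12, and that called IL-12+IL-21 held 20 ng/ml of both cytokines. The culture named IL-1b+IL-6+IL-23 held 20 ng/ml of IL-1b, 25 ng/ml of IL-6 and 20 ng/ml of IL-23. The TGFb+IL-6 culture held 2 ng/ml of human TGF-b and 25 ng/ml of IL-6. Reporter-negative (GFPneg) cells were measured from all 4 cultures and reporter-positive (GFPpos) cells from all but IL-12. The sources used here give no strain, age or sex, and do not state that replicates came from separate animals or cultures. The p-values below therefore measure the spread between these libraries, which may be technical.

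Type I interferons bind the receptor chains IFNAR1 and IFNAR2, whose kinases JAK1 and TYK2 phosphorylate STAT2, among other proteins. STAT2 and IRF9 are parts of a complex that binds a DNA element, the interferon-stimulated response element or ISRE, near the genes it switches on. Their products sense foreign RNA, block virus entry, replication or release, and feed back on the pathway. Interferon gamma, the Th1 cytokine, uses another receptor and acts mainly through a different element, GAS, but it also raises many of the same genes.

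The ISRE was looked up in promoter sequences, since it is the element that the listed genes are known for. Of the 36 genes, 27 had an entry among the RefSeq promoters of build GRCm38.p6, each running from 250 bases before to 50 after a gene's start. The ISRE core was searched as GAAANNGAAA, or TTTCNNTTTC on the other strand, and was found for 13 of the 27 (48.1%), against 1079 of 27025 genes in all (3.99%). The GAS core, TTCNNNGAA, reads the same on both strands and was found for 7 of the 27 (25.9%), against 9.55% of all genes. Matches were counted even where they overlapped each other, and a match describes letters in a window, not a bound site. The windows below are shown for members whose levels are described next, each read 5′ to 3′ on the strand of its gene with every base of an ISRE core match in capitals.
ISG15: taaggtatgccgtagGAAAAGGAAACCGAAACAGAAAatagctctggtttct
IFIT1: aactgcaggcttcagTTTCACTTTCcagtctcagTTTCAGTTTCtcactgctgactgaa
IFIT3: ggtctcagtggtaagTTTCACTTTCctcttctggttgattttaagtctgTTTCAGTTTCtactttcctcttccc
OAS1A: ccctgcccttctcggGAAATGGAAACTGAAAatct
OAS3: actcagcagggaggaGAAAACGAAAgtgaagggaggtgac
BST2: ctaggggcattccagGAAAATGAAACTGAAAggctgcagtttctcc
RSAD2: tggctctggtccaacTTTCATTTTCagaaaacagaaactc
PHF11A: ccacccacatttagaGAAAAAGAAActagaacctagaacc

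The ISG15 window lies at chr4:156200860-156200911 on the minus strand and holds 3 overlapping matches, the first of them 78 bases before the start. IFIT1 (chr19:34640770-34640828) and IFIT3 (chr19:34583358-34583431), both on the plus strand, hold 2 separate matches each, the first of them 104 and 156 bases before their starts. The other windows are on the minus strand, for OAS1A at chr5:120907526-120907560, OAS3 at chr5:120777710-120777749, BST2 at chr8:71537572-71537617, RSAD2 at chr12:26456548-26456587 and PHF11A at chr14:59297527-59297566. OAS1A and BST2 hold 2 overlapping matches, and both also have a GAS core within their promoter, that of BST2 overlapping its first ISRE match. The remaining genes with an ISRE core were STAT2, DDX58, IFIH1, TRIM30A and EIF2AK2. No match was found in the window of 14 genes, IRF7, IRF9, OASL2, ISG20, XAF1, LGALS3BP and SAMHD1 among them, and 4 of the 14 (ISG20, IFI35, SAMHD1 and ADAR) hold a GAS core.

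Of 21 libraries, 16 had 7522 to 9248 genes at a TPM of at least 1 and were used, and 5 had 190 to 5608 and were left out. This left 1 library for TGFb+IL-6 GFPpos, 2 each for IL-12 GFPneg, IL-12+IL-21 GFPneg and TGFb+IL-6 GFPneg, and 3 for each other group. The number of reads was not given in the sources used here, so a value of exactly 0 is described as listed at 0. Of 7 CD4 T cell genes, CD3D, CD3E, CD3G, CD4 and LCK were above 36 TPM in each of the 16, CD28 was at 20.1 to 243 and TRAT1 at 0 to 6.07 TPM. Of the CD8 T cell genes, CD8A was at most 0.29 TPM and CD8B1 at 4.89 to 17.5. CD79A, CD79B and MS4A1 of B cells were at most 0.47, 0.94 and 0.16 TPM. LYZ2, ITGAX and ADGRE1 of myeloid cells, NCR1, KLRB1C and KLRA8 of natural killer cells and LY6D of plasmacytoid dendritic cells were listed at 0 in all 16. Plasmacytoid dendritic cells are strong producers of type I interferon. Of their other listed genes, SIGLECH was at most 0.21, CCR9 0.12 and TCF4 1.04 TPM (TCF4 above 0 in all but 1 library). BST2, also listed for these cells, went the other way, at 445 to 1640 TPM. It is among the 36 genes as well, so it does not separate such cells from interferon-stimulated T cells. The 6 markers of macrophages and conventional dendritic cells summed to 0.28 to 3.15 TPM over all groups.

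Of 20 interferon genes other than IFNG, which included IFNB1 and the IFNA genes, 19 were listed at 0 in all 16 libraries. The exception was IFNZ, which was above 0 in 4 libraries and at most at 1.37 TPM. The sources used here do not say whether interferon was present in the medium. IFNG was at 1300 ± 249 TPM (SD, n = 2) in IL-12 GFPneg, at 181 ± 70.1 (n = 2) in IL-12+IL-21 GFPneg and at 328 ± 111 (n = 3) in IL-12+IL-21 GFPpos. It was at most 0.9 TPM in IL-1b+IL-6+IL-23 and listed at 0 in TGFb+IL-6.

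The receptor chains of type I interferon were present in every culture. IFNAR1 lay between 16.7 and 31.7 TPM over the 16 libraries with no call, and IFNAR2 between 9.17 and 28.7 TPM. IFNAR2 was lower in IL-12 than in TGFb+IL-6 GFPneg cells, by -1.01 ± 0.30 (SE) on the log2(TPM + 1) scale (limma, adjusted p = 0.026). JAK1 ranged over group means from 17.2 to 24.8 TPM. TYK2 was at 7.61 ± 1.41 TPM (n = 3) in IL-1b+IL-6+IL-23 GFPneg and at 2.99 ± 0.636 (n = 2) in TGFb+IL-6 GFPneg, a change of 1.11 ± 0.30 (adjusted p = 0.0198). SOCS1, a feedback inhibitor, varied from 0 to 28 TPM between libraries and passed in none.

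In the mean of the 36 genes, the cultures took the order IL-1b+IL-6+IL-23, IL-12+IL-21, IL-12 and TGFb+IL-6. The mean of log2(TPM + 1) over the 36 genes was 4.53 (4.4 to 4.62, n = 3) in IL-1b+IL-6+IL-23 GFPneg and 4.33 (4.2 to 4.44, n = 3) in GFPpos cells. It was 4.06 (4.01 to 4.11, n = 3) in IL-12+IL-21 GFPpos, 3.97 (3.96 to 3.99, n = 2) in IL-12+IL-21 GFPneg and 3.59 (3.36 to 3.81, n = 2) in IL-12 GFPneg cells. TGFb+IL-6 had the lowest values, 3.26 in the single GFPpos library and 2.88 (2.83 to 2.92, n = 2) in GFPneg cells. No library of one culture overlapped with those of another, while the sorted fractions of IL-1b+IL-6+IL-23 overlapped with each other. Among GFPneg cells, 27 of the 36 genes had their highest mean in IL-1b+IL-6+IL-23, 5 in IL-12+IL-21, 3 in IL-12 and 1 in TGFb+IL-6. The lowest mean was in TGFb+IL-6 for 30 genes, in IL-12 for 5 and, for SAMHD1, in IL-1b+IL-6+IL-23. The 27 include RSAD2, IFIT3 and RTP4, which passed the filter only through IL-1b+IL-6+IL-23, so the rule itself favoured their being highest there. These genes also enter the means above. Such counts were not made over all genes, so how far they are particular to the 36 is not known. The median change of all genes from TGFb+IL-6 GFPneg cells was also above 0 on the log2 scale. It was 0.23 to IL-1b+IL-6+IL-23, 0.33 to IL-12 and 0.21 to IL-12+IL-21. In bulk RNA, fewer cells with the transcripts and fewer transcripts in each cell cannot be told apart.

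**Figure D1:**
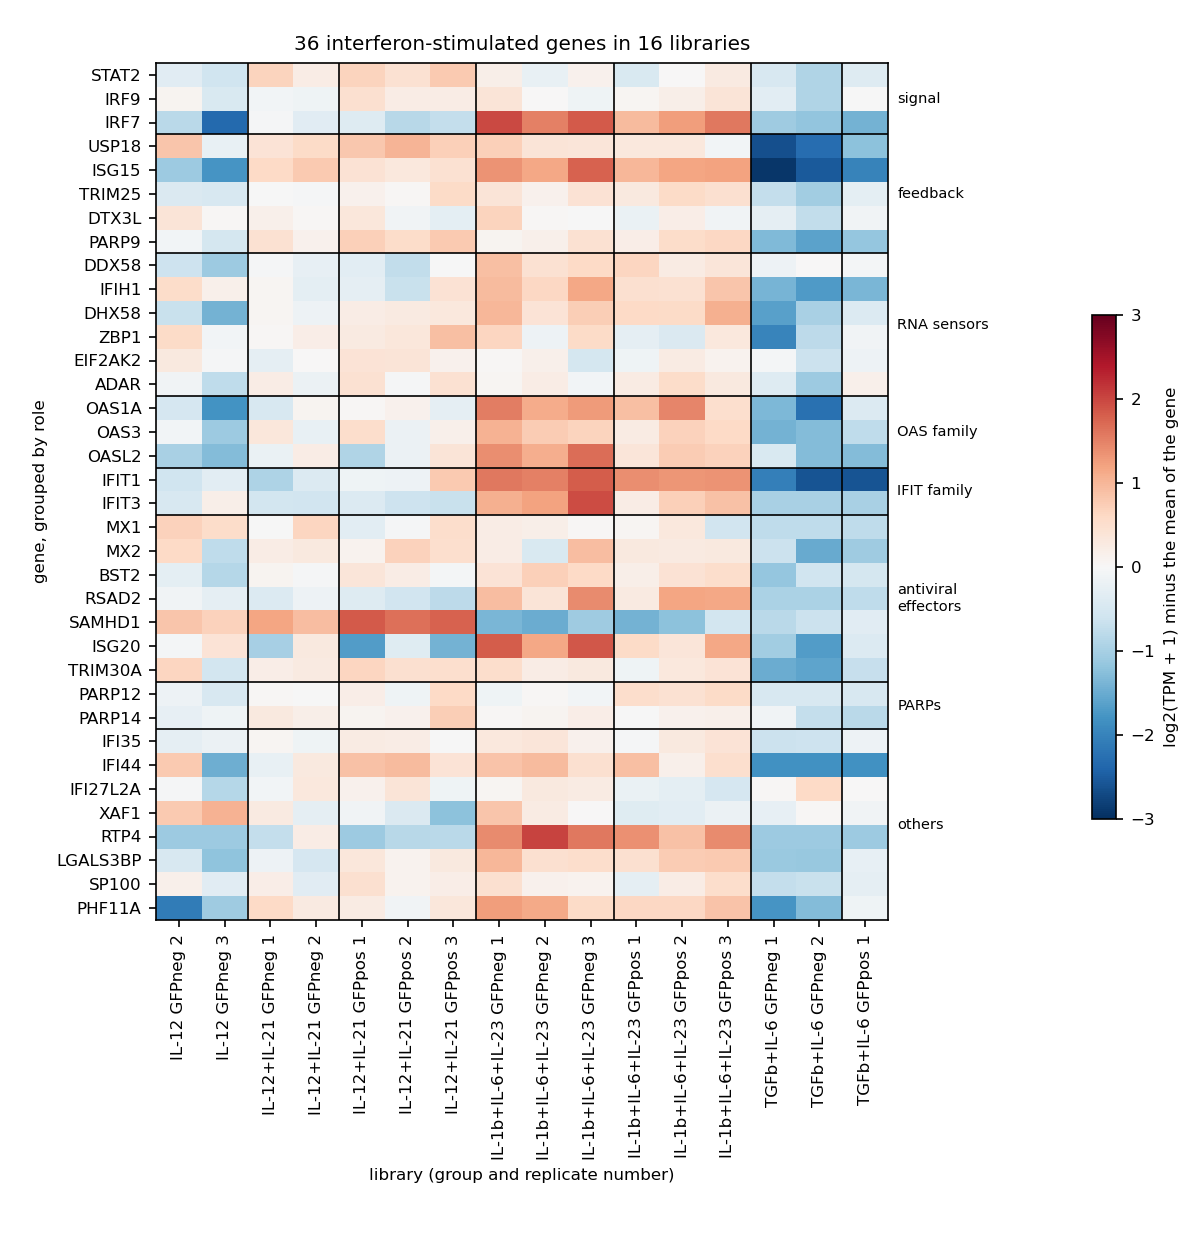
Levels of the 36 genes (one line each, grouped by role) in the 16 libraries (columns), as log2(TPM + 1) minus the mean of each gene, from blue (lower) to red (higher). Most lines are red in IL-1b+IL-6+IL-23 and blue in TGFb+IL-6, while SAMHD1 is red in the cultures with IL-12 and blue in IL-1b+IL-6+IL-23.

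The heat map of all libraries shows how far single genes shared this order. Among GFPneg means, 24 of the 36 were highest in IL-1b+IL-6+IL-23 and lowest in TGFb+IL-6, and 16 followed the whole order. RSAD2, IFIT3 and RTP4, which the filter admitted only through IL-1b+IL-6+IL-23, are among the 24, and RTP4 is among the 16. Neither these counts nor the correlations below were taken over all genes. Over the 16 libraries the median Pearson r between 2 of the 36 genes was 0.576, and 87.9% of the 630 pairs had an r above 0. These points share libraries and differ mainly by culture. When deviations from group means were compared in the 15 libraries of groups with at least 2, the median r was 0.175. ISG15 (r = 0.97), OAS3 (0.96) and BST2 (0.92) followed the mean of the other genes most closely, and SAMHD1 (-0.20), IFI27L2A (-0.11) and XAF1 (-0.10) did not follow it.

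Among the genes of the signal itself, IRF7 differed most between cultures. IRF7 encodes the transcription factor that drives interferon alpha genes and is itself raised by interferon. It was at 64.7, 47 and 59.2 TPM under IL-1b+IL-6+IL-23 in GFPneg and at 31.3, 39.2 and 49 in GFPpos cells. In IL-12+IL-21 it was at 15.4 and 12.3 in GFPneg and at 11.7, 8.48 and 9.16 in GFPpos cells, in IL-12 GFPneg at 8.61 and 2.32, and in TGFb+IL-6 at 6.95 and 6.35 in GFPneg and 5.31 in GFPpos cells. All 6 libraries of IL-1b+IL-6+IL-23 lay above the 10 others, and IL-12 and TGFb+IL-6 overlapped. IRF7 was higher in IL-1b+IL-6+IL-23 than in TGFb+IL-6 GFPneg cells by 2.91 ± 0.35 on the log2(TPM + 1) scale (limma, adjusted p = 2.79e-05). It was lower in IL-12 than in IL-1b+IL-6+IL-23 GFPneg cells by -3.35 ± 0.35 (adjusted p = 1.28e-05). Its gene (chr7:141262706-141266481, minus strand) overlaps Phrf1 on the other strand, and the use of strand in counting was not given in the sources used here.

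STAT2 and IRF9, parts of the ISRE-binding complex, varied less. STAT2 was at 16.3 and 11.7 TPM with IL-12+IL-21 in GFPneg and at 16.4, 13.8 and 17.7 in GFPpos cells, and at 7.6 and 6.2 in IL-12. It was at 11.2, 8.28 and 10.8 TPM under IL-1b+IL-6+IL-23 in GFPneg, 6.98, 9.96 and 12.1 in GFPpos, 6.83 and 4.78 in TGFb+IL-6 GFPneg and 7.38 in GFPpos cells. Its 4 highest libraries were thus of IL-12+IL-21, and it was higher there than in TGFb+IL-6 in GFPneg cells (1.14 ± 0.29, adjusted p = 0.0265). That call was lost without IL-12+IL-21 GFPneg replicate 1 or TGFb+IL-6 GFPneg replicate 2 (adjusted p up to 0.259). IRF9 was at 27.3 and 18.3 TPM in IL-12, at 24.1 and 23.5 in IL-12+IL-21 GFPneg and at 36.5, 30 and 30.3 in GFPpos cells. It was at 33.9, 25.8 and 23.6 under IL-1b+IL-6+IL-23 in GFPneg, 26.8, 29 and 33.9 in GFPpos, 20.5 and 13.3 in TGFb+IL-6 GFPneg and 25.3 in GFPpos cells. IRF9 passed the test in none of the comparisons, its smallest adjusted p being 0.0624 for IL-1b+IL-6+IL-23 against TGFb+IL-6 (0.70 ± 0.24). There it was called without TGFb+IL-6 GFPneg replicate 1 (0.0434), with a replicate block (0.0413) and with a filter of 5 TPM (0.0439).

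ISG15, a ubiquitin-like protein that is attached to other proteins, separated the cultures without overlap among GFPneg cells. It was at 134, 117 and 177 TPM under IL-1b+IL-6+IL-23, at 78.1 and 90.2 in IL-12+IL-21, at 23.7 and 14.5 in IL-12 and at 5.99 and 8.21 in TGFb+IL-6 GFPneg cells. In GFPpos cells it was at 104, 119 and 121 TPM under IL-1b+IL-6+IL-23, at 70.6, 64.3 and 71.8 in IL-12+IL-21 and at 12.2 in TGFb+IL-6. The change from TGFb+IL-6 to IL-1b+IL-6+IL-23 was 4.14 ± 0.23 (adjusted p = 9.09e-09). That from IL-12 to IL-12+IL-21 was 2.11 ± 0.25 (adjusted p = 0.000762).

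USP18, the protease that removes ISG15 from proteins and also dampens signalling at IFNAR2, was lower in TGFb+IL-6 than in any other library. It was at 44.4 and 20.8 TPM in IL-12, at 33.2 and 36.9 in IL-12+IL-21, at 41.2, 32.6 and 32 under IL-1b+IL-6+IL-23 and at 3.1 and 4.25 in TGFb+IL-6 GFPneg cells. In GFPpos cells it was at 44.2, 51.3 and 40.9 in IL-12+IL-21, at 31, 30.7 and 23 under IL-1b+IL-6+IL-23 and at 9.97 in TGFb+IL-6. It was higher by 2.96 ± 0.27 in IL-1b+IL-6+IL-23 (adjusted p = 2.31e-06), by 2.96 ± 0.30 in IL-12+IL-21 (7.63e-06) and by 2.76 ± 0.30 in IL-12 (1.14e-05) than in TGFb+IL-6 GFPneg cells. PARP9, which works with the ubiquitin ligase DTX3L and whose gene overlaps that of DTX3L, had the same pattern. It was at 17.7 and 12.7 TPM in IL-12, at 26 and 20.5 in IL-12+IL-21, at 19.9, 20.9 and 25.9 under IL-1b+IL-6+IL-23 and at 6.83 and 5.46 in TGFb+IL-6 GFPneg cells. GFPpos values were 31.4, 27.8 and 32.8 in IL-12+IL-21, 21.7, 27.9 and 29.1 under IL-1b+IL-6+IL-23, and 7.78 in TGFb+IL-6. TRIM25, a ubiquitin ligase that activates RIG-I, ranged from 1.87 to 7.89 TPM, and DTX3L from 17.5 to 48.5 TPM with no call. PARP12 and PARP14, other ADP-ribosyltransferases, stayed within 0 to 1.08 and 0.7 to 3.98 TPM, also with no call.

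The RNA sensors were mostly low transcripts. IFIH1, which encodes the sensor MDA5, was at 5.59 and 3.98 TPM in IL-12, at 3.72 and 2.67 in IL-12+IL-21, at 7.65, 5.99 and 9.11 under IL-1b+IL-6+IL-23 and at 0.73 and 0.39 in TGFb+IL-6 GFPneg cells. In GFPpos cells it was at 2.75, 1.85 and 5.12 in IL-12+IL-21, at 5.33, 5.16 and 6.99 under IL-1b+IL-6+IL-23 and at 0.74 in TGFb+IL-6. All 3 TGFb+IL-6 libraries were below the 13 others, and the change to IL-1b+IL-6+IL-23 in GFPneg cells was 2.45 ± 0.32 (adjusted p = 7.39e-05). ZBP1, a sensor of nucleic acids in the Z form, was far more abundant. It was at 130 and 83.2 TPM in IL-12, 89.3 and 100 in IL-12+IL-21, 137, 79.1 and 131 under IL-1b+IL-6+IL-23 and 21.3 and 50.5 in TGFb+IL-6 GFPneg cells. GFPpos values were 105, 111 and 164 TPM in IL-12+IL-21, 72.4, 65 and 110 under IL-1b+IL-6+IL-23 and 80.9 in TGFb+IL-6. Both TGFb+IL-6 GFPneg libraries were lowest, while the GFPpos library lay among those of the other cultures. DDX58, which encodes RIG-I, ranged from 0.61 to 5.39 TPM and DHX58, which encodes the related LGP2, from 3.23 to 26.3 TPM. Both were lower in IL-12 than in IL-1b+IL-6+IL-23 GFPneg cells, by -1.50 ± 0.29 and -1.76 ± 0.28 (adjusted p = 0.00383 and 9e-04). EIF2AK2, the kinase PKR, and ADAR, which edits double-stranded RNA, stayed within 1.91 to 5.06 and 2.37 to 9.42 TPM and passed in no comparison.

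The OAS family makes the second messenger that activates RNase L, and its 3 members within the rule were highest in IL-1b+IL-6+IL-23. OAS1A was at 26.4, 19.3 and 21.8 TPM in GFPneg and at 16.5, 25.1 and 12.4 in GFPpos cells of that culture. It was at 5.59 and 1.72 in IL-12, at 5.76 and 8.89 in IL-12+IL-21 GFPneg, at 8.63, 9.23 and 6.86 in IL-12+IL-21 GFPpos cells, at 2.67 and 0.99 in TGFb+IL-6 GFPneg and at 6.09 in TGFb+IL-6 GFPpos cells. No library outside IL-1b+IL-6+IL-23 reached the lowest inside it. OASL2 was at 5.44, 4.18 and 6.8 TPM under IL-1b+IL-6+IL-23 in GFPneg and at 2.13, 3.12 and 2.97 in GFPpos cells. It was at 0.25 and 0 in IL-12, at 1.13 and 1.87 in IL-12+IL-21 GFPneg, at 0.3, 1.17 and 2.19 in GFPpos, at 0.77 and 0 in TGFb+IL-6 GFPneg and at 0 in GFPpos cells. For OASL2, the GFPpos cells of IL-12+IL-21 overlapped with those of IL-1b+IL-6+IL-23. OAS3 ranged from 10.2 TPM in a TGFb+IL-6 library to 60.7 TPM in an IL-1b+IL-6+IL-23 library. OAS1A has close copies, of which OAS1B was at 2.06 to 5.34 TPM in group means and OAS1G at most at 0.93, and reads may be split between them.

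IFIT proteins bind foreign RNA by its 5′ end, and IFIT1 was at or near 0 in TGFb+IL-6 alone. It was at 17, 16.3 and 20.3 TPM under IL-1b+IL-6+IL-23 in GFPneg and at 14.8, 14 and 14.3 in GFPpos cells. In IL-12 it was at 2.98 and 3.86, in IL-12+IL-21 at 2.2 and 3.56 in GFPneg and at 4.52, 4.41 and 9.47 in GFPpos cells. The TGFb+IL-6 libraries were at 0.46 and 0 in GFPneg and at 0 in GFPpos cells. The 3 sets of libraries did not overlap, and the change from TGFb+IL-6 to IL-1b+IL-6+IL-23 in GFPneg cells was 3.96 ± 0.31 (adjusted p = 4.04e-07). IFIT3 was at 3.14, 3.53 and 6.64 TPM under IL-1b+IL-6+IL-23 in GFPneg and at 1.28, 2.21 and 2.63 in GFPpos cells. In IL-12 it was at 0.41 and 1.21, in IL-12+IL-21 at 0.35 and 0.33 in GFPneg and at 0.49, 0.29 and 0.24 in GFPpos cells, and in TGFb+IL-6 it was listed at 0. Each IL-1b+IL-6+IL-23 library was thus above all others, with IL-12 replicate 3 close below. IFIT3 has a near copy, IFIT3B, at 0.72 TPM or less in group means. IFIT2, the gene left out by the rule, did not share this pattern, with its highest value, 2.32 TPM, in an IL-12 library.

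Among genes that act on virus entry, replication and release, BST2 was the most abundant. It encodes tetherin, which holds budding virus at the cell surface,. It was at 817 and 553 TPM in IL-12, at 1063 and 978 in IL-12+IL-21, at 1319, 1640 and 1521 under IL-1b+IL-6+IL-23 and at 445 and 656 in TGFb+IL-6 GFPneg cells. In GFPpos cells it was at 1275, 1172 and 950 in IL-12+IL-21, at 1135, 1338 and 1427 under IL-1b+IL-6+IL-23 and at 691 in TGFb+IL-6. The GFPneg libraries of IL-12 and TGFb+IL-6 overlapped, and those of IL-12+IL-21 and of IL-1b+IL-6+IL-23 lay above them. MX1, a GTPase that blocks viral ribonucleoproteins and is inactive in many laboratory strains, was scarce. It was at 1.74 and 1.45 TPM in IL-12, at 0.66 and 1.62 in IL-12+IL-21 and at 0.96, 0.91 and 0.73 under IL-1b+IL-6+IL-23 in GFPneg cells. GFPpos values were 0.35, 0.63 and 1.43 in IL-12+IL-21 and 0.74, 1.1 and 0.13 under IL-1b+IL-6+IL-23, and MX1 was listed at 0 in all 3 TGFb+IL-6 libraries. It passed the test for IL-12 against TGFb+IL-6 (adjusted p = 0.0136), a call lost without IL-12 GFPneg replicate 2 or either TGFb+IL-6 GFPneg library (adjusted p up to 0.0744) and with all 21 libraries (0.824). MX2, which GENCODE M21 lists as a polymorphic pseudogene, ranged from 0.38 to 6.46 TPM with no call. RSAD2, which encodes viperin, was at 1.35 to 4.18 TPM in IL-1b+IL-6+IL-23 and at most at 0.81 elsewhere. ISG20, an RNA exonuclease, ranged from 0 to 10.7 TPM, and TRIM30A, a mouse TRIM protein, from 9.51 to 48.2 TPM.

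SAMHD1, which breaks down the deoxynucleotides that retroviruses need, was high in the cultures with IL-12 and lowest under IL-1b+IL-6+IL-23. Levels stood at 87.6 and 78.6 TPM in IL-12, at 111 and 93.3 in IL-12+IL-21 GFPneg and at 176, 155 and 166 in IL-12+IL-21 GFPpos cells. It was at 18.1, 16.5 and 22.7 under IL-1b+IL-6+IL-23 in GFPneg, at 17.6, 20.2 and 32.5 in GFPpos, at 27.3 and 30.6 in TGFb+IL-6 GFPneg and at 38.2 in TGFb+IL-6 GFPpos cells. Each of the 7 libraries with IL-12 lay above each of the 9 without. It was higher in IL-12+IL-21 than in IL-1b+IL-6+IL-23 by 2.37 ± 0.23 in GFPneg cells (adjusted p = 1.33e-05) and by 2.82 ± 0.21 in GFPpos cells (2.83e-07). Both changes also passed the test after median-ratio and quantile scaling of the libraries.

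**Figure D2:**
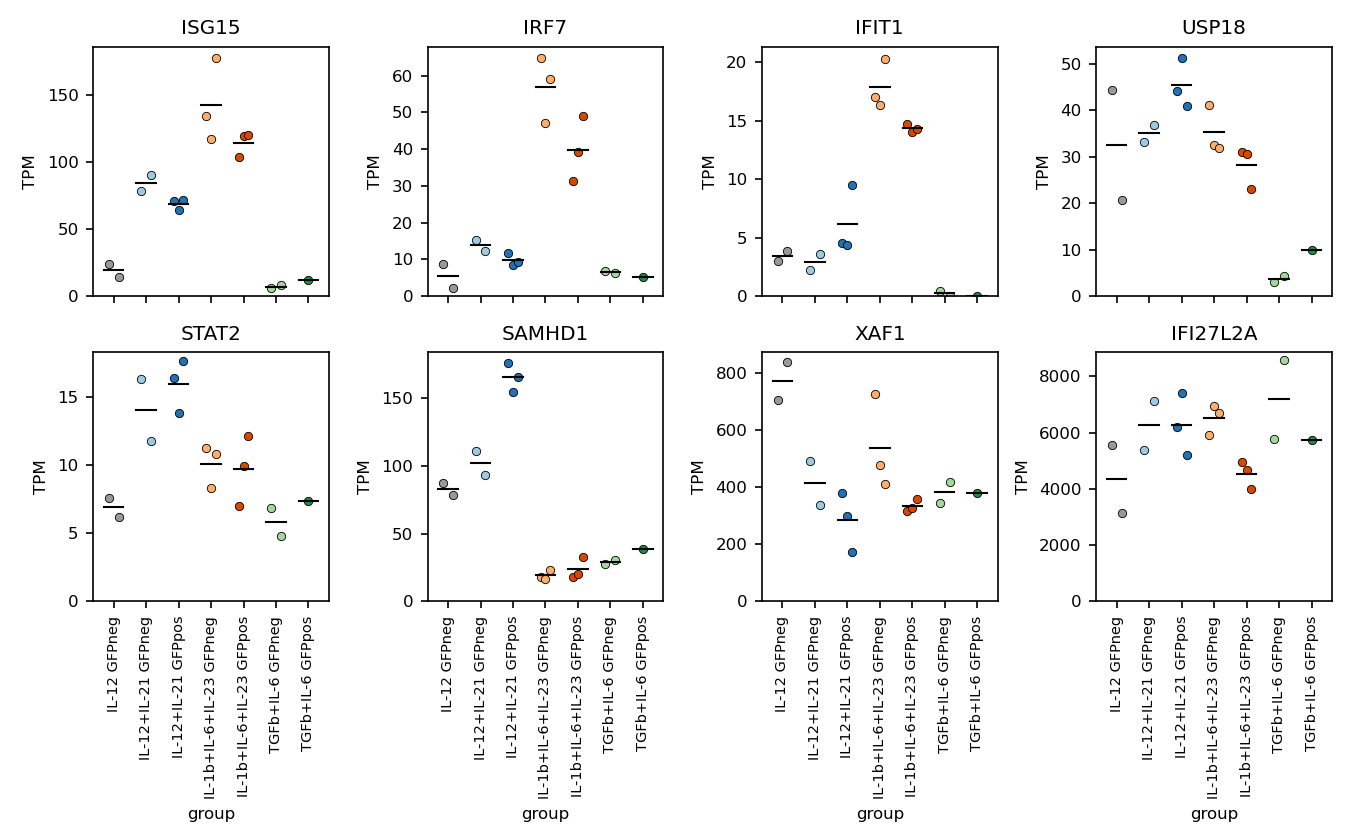
TPM of 8 genes in the 7 groups, with 1 point per library and a line at the group mean. ISG15, IRF7 and IFIT1 are highest in IL-1b+IL-6+IL-23, USP18 is low in TGFb+IL-6 alone, STAT2 and SAMHD1 are highest in IL-12+IL-21, XAF1 is highest in IL-12, and IFI27L2A lies at 3132 TPM or more in each library.

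The plot of TPM by group places these patterns side by side. RTP4, a protein of the receptor transporter family, was low or listed at 0 outside IL-1b+IL-6+IL-23, where it was at 4.66, 7.71 and 5.32 TPM in GFPneg and 4.5, 2.89 and 4.7 in GFPpos cells. It was at 0.3 and 1.47 in IL-12+IL-21 GFPneg, at 0, 0.19 and 0.21 in IL-12+IL-21 GFPpos cells and listed at 0 in the 5 libraries of IL-12 and TGFb+IL-6. Its gene overlaps Masp1 on the other strand. PHF11A, a nuclear PHD finger protein, was at 15.5, 14.2 and 9.36 TPM under IL-1b+IL-6+IL-23, 9.58 and 7.47 in IL-12+IL-21, 0.63 and 2.34 in IL-12 and 1.05 and 1.81 in TGFb+IL-6 GFPneg cells. GFPpos values were 9.65, 9.7 and 11.6 under IL-1b+IL-6+IL-23, 7.24, 5.5 and 7.85 in IL-12+IL-21 and 5.33 in TGFb+IL-6. Its copy PHF11B had group means of 5.01 TPM in IL-12, 16 in IL-12+IL-21 and 34.9 under IL-1b+IL-6+IL-23 in GFPneg cells. Unlike PHF11A, it was higher in TGFb+IL-6 GFPneg cells, at 13.8 TPM, than in IL-12. Reads of both may be mixed.

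LGALS3BP, a secreted glycoprotein, was at 422, 295 and 305 TPM under IL-1b+IL-6+IL-23, 190 and 147 in IL-12+IL-21, 151 and 91 in IL-12 and 96.8 and 95.4 in TGFb+IL-6 GFPneg cells. GFPpos values were 292, 359 and 361 under IL-1b+IL-6+IL-23, 267, 227 and 256 in IL-12+IL-21 and 177 in TGFb+IL-6. IFI35, which binds other interferon-induced proteins, was at 121, 124 and 105 TPM under IL-1b+IL-6+IL-23, 99.8 and 88.2 in IL-12+IL-21, 79.7 and 85.9 in IL-12 and 61.6 and 62.5 in TGFb+IL-6 GFPneg cells. In GFPpos cells it was at 94.6, 118 and 128 under IL-1b+IL-6+IL-23, 115, 113 and 96.1 in IL-12+IL-21 and 86.7 in TGFb+IL-6. Both had their lowest means in TGFb+IL-6 GFPneg cells, although IL-12 replicate 3 was lower still for LGALS3BP. IFI44 was at 0.27 to 5.79 TPM in 3 cultures and listed at 0 in TGFb+IL-6, and SP100, a nuclear body protein, ranged from 32.6 to 78.2 TPM.

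XAF1 and IFI27L2A, both abundant, did not follow the other genes. XAF1, which opposes the apoptosis inhibitor XIAP, was at 705 and 840 TPM in IL-12, 492 and 337 in IL-12+IL-21, 725, 479 and 411 under IL-1b+IL-6+IL-23 and 344 and 419 in TGFb+IL-6 GFPneg cells. GFPpos values were 381, 299 and 173 in IL-12+IL-21, 315, 326 and 359 under IL-1b+IL-6+IL-23 and 379 in TGFb+IL-6. The change from TGFb+IL-6 to IL-12 was 1.02 ± 0.31 (adjusted p = 0.0305), and it was lost when any one of the 4 libraries was left out (adjusted p up to 0.149) and under median-ratio scaling. IFI27L2A, a small membrane protein, was at 5543 and 3132 TPM in IL-12, 5393 and 7116 in IL-12+IL-21, 5921, 6948 and 6681 under IL-1b+IL-6+IL-23 and 5779 and 8593 in TGFb+IL-6 GFPneg cells. GFPpos values were 6189, 7398 and 5204 in IL-12+IL-21, 4936, 4650 and 3993 under IL-1b+IL-6+IL-23 and 5728 in TGFb+IL-6. It was lower in IL-12 than in TGFb+IL-6 by -0.76 ± 0.24 (adjusted p = 0.038), a call lost without TGFb+IL-6 GFPneg replicate 2 or IL-12 GFPneg replicate 3 (adjusted p up to 0.37). IFI27L2A made up most of the summed TPM of the 36 genes, which is why the means above are taken on the log2 scale.

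When GFPneg cells from IL-1b+IL-6+IL-23 were compared with those from TGFb+IL-6, 23 of the 36 genes were higher and 0 lower at an adjusted p under 0.05. Of all 9592 genes, 10.6% were higher and 4.83% lower. The 23 were IRF7, USP18, ISG15, TRIM25, PARP9, the sensors IFIH1, DHX58 and ZBP1, all 3 OAS genes and both IFIT genes tested. They further held BST2, RSAD2, ISG20 and TRIM30A among 7 effectors, and IFI35, IFI44, RTP4, LGALS3BP, SP100 and PHF11A among 8 others. The median change of the 36 genes was 1.72, against 0.23 for all genes. It includes IFIT3, RTP4, RSAD2, IFI44, MX1 and PARP12, which were listed at 0 in both TGFb+IL-6 libraries. IFIT3, RTP4 and RSAD2 passed the filter only through IL-1b+IL-6+IL-23, so the rule itself favoured their being higher there. After median-ratio scaling both medians were lower, at 1.44 and 0.01, and 21 of the 36 genes were higher and SAMHD1 lower, while the split over all genes went from 1015 higher and 463 lower to 729 and 835. Ribosomal protein genes held 42.1% and 42.6% of the TPM in both TGFb+IL-6 GFPneg libraries and 31.7% to 39.5% in the other 14, and their part in the result was not tested.

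IL-12+IL-21 and IL-12 also stood above TGFb+IL-6 in GFPneg cells, in fewer genes. For IL-12+IL-21, 15 of the 36 genes were higher (4.81% of all genes) and 0 lower (2.01%). These were ISG15 (3.40 ± 0.25, adjusted p = 2.41e-07), USP18, PARP9, STAT2, IFIT1, OAS1A, OAS3, IFIH1, DHX58, ZBP1, BST2, TRIM30A, SAMHD1, IFI44 and PHF11A. The median was 0.93, against 0.21 for all genes, and 0.88 against -0.01 after median-ratio scaling, which left 11 of the 15 and changed the split of all genes from 461 higher and 193 lower to 366 and 404. Leaving out any one of the 4 libraries left 7 to 9 calls, with 7 without IL-12+IL-21 GFPneg replicate 1, and ISG15, USP18, PARP9, TRIM30A, SAMHD1 and PHF11A were called each time.

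For IL-12 against TGFb+IL-6, 11 of the 36 genes were higher (15.8% of all genes) and IFI27L2A was lower (5.09% of all genes). The genes that were higher were USP18, ISG15, PARP9, IFIH1, ZBP1, IFIT1, MX1, SAMHD1, ISG20, TRIM30A and XAF1, so the share of the 36 was nearer to that of all genes here. OAS1A, OAS3 and OASL2 were not among them, with changes of 0.65 ± 0.42, 0.78 ± 0.32 and -0.25 ± 0.41. The call of ISG20 rested on low values, 2.11 and 3.25 TPM in IL-12 against 0.55 and 0 in TGFb+IL-6 GFPneg cells. It was lost with a pseudocount of 5, with median-ratio scaling and with a replicate block. The median was 0.62, against 0.33 for all genes, and 0.23 against 0 after median-ratio scaling, where all genes split 745 higher and 920 lower in place of 1512 and 488. In all 12 genes were called, against 7 without TGFb+IL-6 GFPneg replicate 2 and 8 without IL-12 GFPneg replicate 2. The 3 comparisons with TGFb+IL-6 share its 2 GFPneg libraries.

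The plot of changes in GFPneg cells also shows how the cultures with IL-12 compared to IL-1b+IL-6+IL-23. For IL-12+IL-21, 7 of the 36 genes were lower (1.25% of all genes) and SAMHD1 was higher (2.16% of all genes). The 7 were IFIT1 (-2.30 ± 0.31, adjusted p = 0.000305), IFIT3 (-1.97 ± 0.32), IRF7 (-1.96 ± 0.35), ISG20 (-1.96 ± 0.45), RTP4 (-1.92 ± 0.31), OAS1A (-1.51 ± 0.38) and LGALS3BP (-1.01 ± 0.21). ISG15 (-0.74 ± 0.23, adjusted p = 0.112) and USP18 (0 ± 0.27) were not among them. Of the 7, IFIT3 and RTP4 passed the filter only through IL-1b+IL-6+IL-23, which favoured their being lower here. The median was -0.35, against -0.01 for all genes. Leaving out IL-1b+IL-6+IL-23 GFPneg replicate 1 or either IL-12+IL-21 library left 5 calls, and OAS1A was lost without any one of the 5 libraries.

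In IL-12 alone, 13 of the 36 genes were lower than in IL-1b+IL-6+IL-23 GFPneg cells (2.71% of all genes) and SAMHD1 was higher (2.07 ± 0.23, adjusted p = 2.89e-05, with 4.3% of all genes higher). They were IRF7, ISG15 (-2.85 ± 0.23, adjusted p = 7.37e-07), DDX58, DHX58, OAS1A (-2.46 ± 0.38), OAS3, OASL2 (-2.51 ± 0.37), IFIT1, IFIT3, BST2, LGALS3BP, PHF11A (-2.56 ± 0.32) and RTP4, the last of which was listed at 0 in IL-12. IFIT3 and RTP4 passed the filter only through IL-1b+IL-6+IL-23, which favoured their being lower in IL-12. The median was -0.60, against 0.09 for all genes, which split 412 higher and 260 lower, or 334 and 396 after median-ratio scaling. The IL-12 libraries differed from each other, with a mean of 3.81 in replicate 2 and 3.36 in replicate 3, and IFIT3 was not called without the first, nor OAS3, BST2 and DDX58 without the second.

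Adding IL-21 to IL-12 was accompanied by higher ISG15 and PHF11A in GFPneg cells. These 2 of the 36 genes were higher (0.313% of all genes) and 0 were lower (0.448%), while by limma 14 (38.9%) had an unadjusted p under 0.05, 13 of them higher, as had 13.7% of all genes. The median was 0.35, against -0.09 for all genes, and 0.46 against 0.01 after median-ratio scaling, where STAT2 was also called and all genes split 38 higher and 23 lower in place of 30 and 43. PHF11A changed by 2.02 ± 0.35 (adjusted p = 0.0144), and its call was lost without IL-12 GFPneg replicate 2 or either IL-12+IL-21 library (adjusted p up to 0.115). IFNG went the other way, from 1300 to 181 TPM (-2.88 ± 0.37, adjusted p = 0.00101).

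The same cultures were compared in GFPpos cells, which share no library with the GFPneg comparison. It is not an independent repeat, since both fractions were sorted from the same kinds of culture and tested in the same fit with a shared spread. In IL-12+IL-21 against IL-1b+IL-6+IL-23, 6 of the 36 genes were lower (1.38% of all genes) and SAMHD1 was higher (3.59%). The 6 were RTP4 (-2.13 ± 0.28, adjusted p = 0.00013), IRF7 (-1.91 ± 0.31, 0.00103), ISG20 (-1.85 ± 0.40), RSAD2 (-1.46 ± 0.30), IFIT1 (-1.18 ± 0.28) and IFIT3 (-1.16 ± 0.29). RTP4, RSAD2 and IFIT3 passed the filter only through IL-1b+IL-6+IL-23, so the rule itself favoured a lower level of these genes against that culture. IRF7, RTP4 and SAMHD1 were called whichever of the 6 libraries was left out, and without IL-12+IL-21 GFPpos replicate 1 or IL-1b+IL-6+IL-23 GFPpos replicate 2 or 3 there were 4 calls. The median was -0.20, against 0.15 for all genes, and -0.40 against -0.02 after median-ratio scaling, where all genes split 254 higher and 227 lower in place of 344 and 132.

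None of the 36 genes passed the test between reporter-positive and reporter-negative cells of the same culture, while some genes outside them did. By limma 0 of the 36 had an adjusted p under 0.05 in IL-12+IL-21 (0.156% of all genes), 0 in IL-1b+IL-6+IL-23 (0.427%) and 0 in TGFb+IL-6 (0.323%), where the single GFPpos library gives no spread of its own. At an unadjusted p under 0.05 there were 4 (11.1%, against 14.5% of all genes), 6 (16.7% against 8.43%) and 9 (25% against 16.9%). In IL-12+IL-21 these were SAMHD1 (0.69 ± 0.23, adjusted p = 0.199), LGALS3BP (0.58 ± 0.21) and IFIT1 (0.83 ± 0.31), higher in GFPpos cells, and RTP4 (-0.67 ± 0.31). In IL-1b+IL-6+IL-23 they were PARP12 (0.59 ± 0.23), and ISG20, IFIT3, OASL2, XAF1 and IFI27L2A, which were at -0.92 to -0.53. PARP12 was near the floor, at 0.26 to 0.42 TPM in GFPneg and 0.91 to 1.07 in GFPpos cells. It would not have passed the filter without these GFPpos libraries. XAF1 went from 538 ± 165 TPM in GFPneg to 333 ± 23 in GFPpos cells, and IFI27L2A from 6520 ± 533 to 4530 ± 483 (n = 3 each, adjusted p = 0.465 and 0.444). In TGFb+IL-6, with a single GFPpos library, all 9 were higher in GFPpos cells, among them PHF11A (1.40 ± 0.43), OAS1A (1.39 ± 0.51), ZBP1 (1.27 ± 0.46) and USP18 (1.24 ± 0.37, adjusted p = 0.154).

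**Figure D3:**
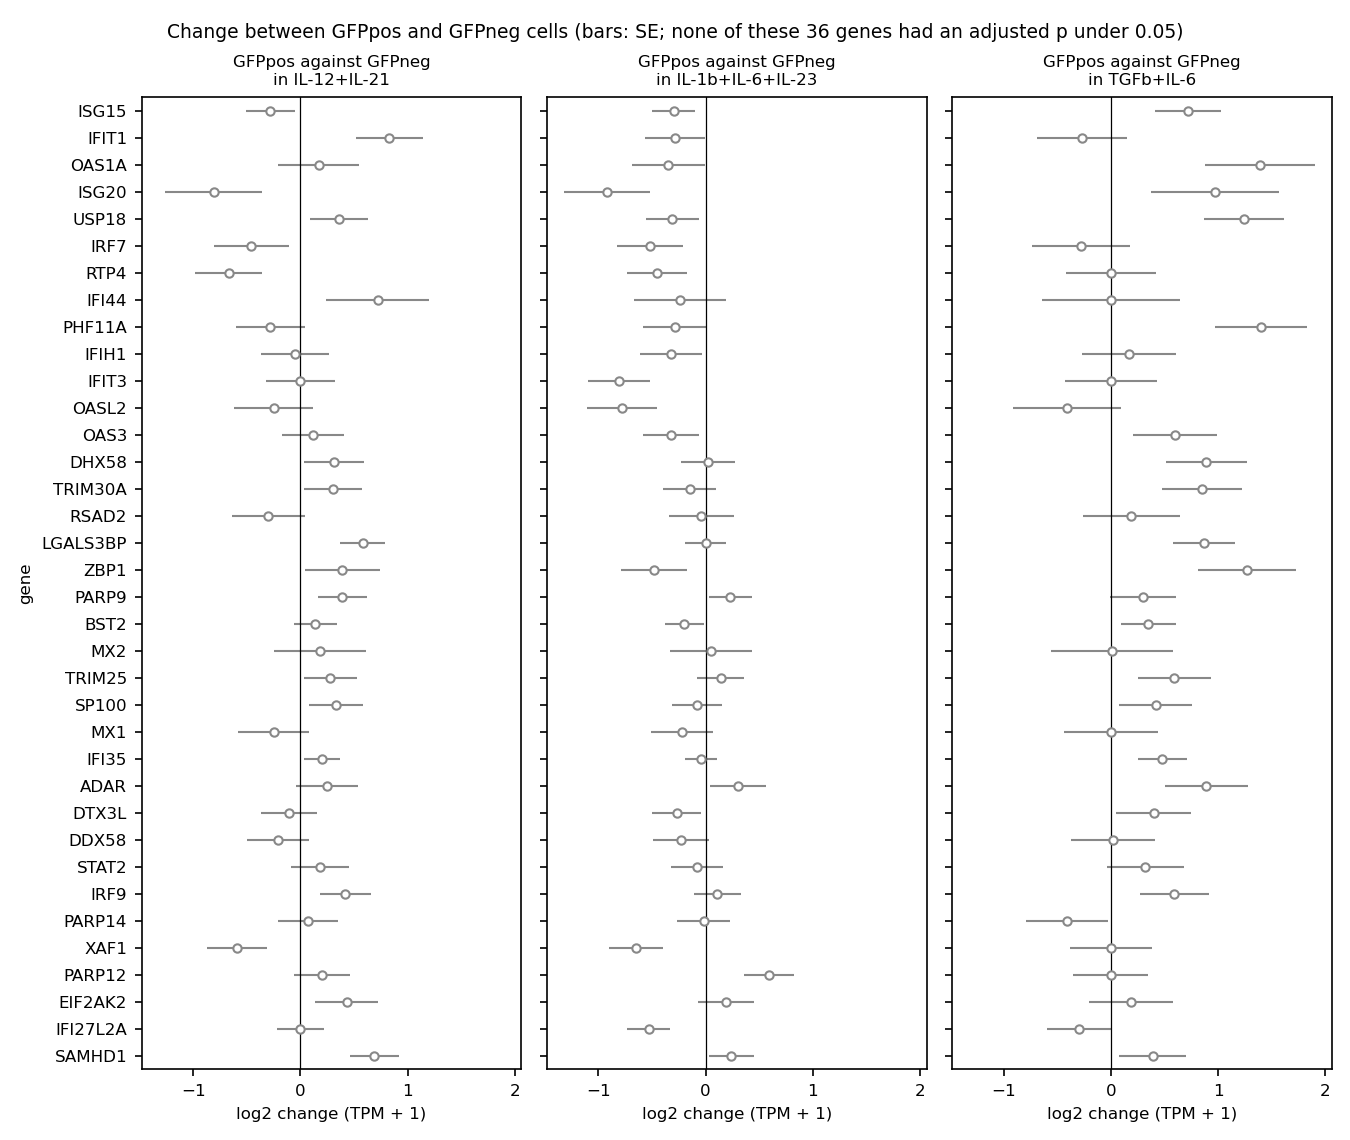
Log2 change of the 36 genes (vertical axis) between GFPpos and GFPneg cells in 3 cultures, with SE as bars. The points of IL-12+IL-21 and of IL-1b+IL-6+IL-23 lie between -0.92 and 0.83, those of TGFb+IL-6 rest on 1 GFPpos library and reach 1.40.

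The plot of the reporter contrast shows changes of both signs. Of the 36 genes, 23 were higher and 13 lower in GFPpos cells of IL-12+IL-21, 9 higher and 27 lower in IL-1b+IL-6+IL-23, and 30 higher and 6 lower in TGFb+IL-6, none with an adjusted p under 0.05. After median-ratio scaling 15, 8 and 20 were higher. Their medians were 0.18 in IL-12+IL-21, -0.22 in IL-1b+IL-6+IL-23 and 0.34 in TGFb+IL-6, against 0.24, 0.07 and 0.37 for all genes, and they became -0.08, -0.27 and 0 after median-ratio scaling. All genes then split 2 higher and 6 lower, 25 and 13, and 7 and 12, in place of 11 and 4, 33 and 8, and 25 and 6. The difference of the reporter contrast of IL-12+IL-21 from that of IL-1b+IL-6+IL-23 was tested as an interaction, in which 0 of the 36 genes and 0% of all 9592 genes were called. IFIT1 alone had an unadjusted p under 0.05 (1.12 ± 0.42, adjusted p = 0.89), as had 474 of all genes. Against the contrast in TGFb+IL-6, with its single GFPpos library, 0 of the 36 were called both for IL-12+IL-21 (0.0104% of all genes) and for IL-1b+IL-6+IL-23 (0.0834%). At an unadjusted p under 0.05 there were 3 (ISG15, ISG20 and PHF11A) and 8, or 8.33% and 22.2%, against 4.33% and 9.37% of all genes. The 8 added OAS1A, USP18, ZBP1, TRIM30A and LGALS3BP, and the median of the 36 was -0.48 there, against -0.29 for all genes.

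A list of 24 genes that interferon gamma induces strongly was set beside the 36, and 22 of them were tested. It was highest in the cultures with IL-12, where IFNG was high. Its mean log2 level was 5.04 in IL-12 GFPneg, 5.15 and 5.18 in IL-12+IL-21 GFPneg and GFPpos, 3.86 and 3.76 under IL-1b+IL-6+IL-23 in GFPneg and GFPpos, and 3.12 and 3.22 in TGFb+IL-6 GFPneg and GFPpos cells. The plot of both lists shows that libraries of IL-1b+IL-6+IL-23 were higher for the 36 genes than those of IL-12+IL-21, and lower for the interferon gamma list. For the 36 genes, the IL-12+IL-21 libraries still lay above those of IL-12 and TGFb+IL-6. In GFPneg cells, 13 of the 22 were higher and 0 lower in IL-12+IL-21 than in IL-1b+IL-6+IL-23 (2.16% of all genes were higher), the median being 1.16. They included the transcription factors IRF8 (3.87 ± 0.40, adjusted p = 2.15e-05) and IRF1 (2.06 ± 0.28), the chemokine CXCL10 (3.82 ± 0.44), and the GTPases IGTP (1.66 ± 0.22) and GBP2 (1.72 ± 0.23). Against the same culture, 10 of 22 were higher and 0 lower in IL-12 (4.3% of all genes higher), and 14 were higher and 0 lower in the GFPpos comparison (3.59%). Against TGFb+IL-6, 17 were higher in IL-12 (15.8% of all genes) and 17 in IL-12+IL-21 (4.81%). In IL-1b+IL-6+IL-23, 10 were higher (10.6% of all genes) and 1, IRF8, lower (4.83%).

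**Figure D4:**
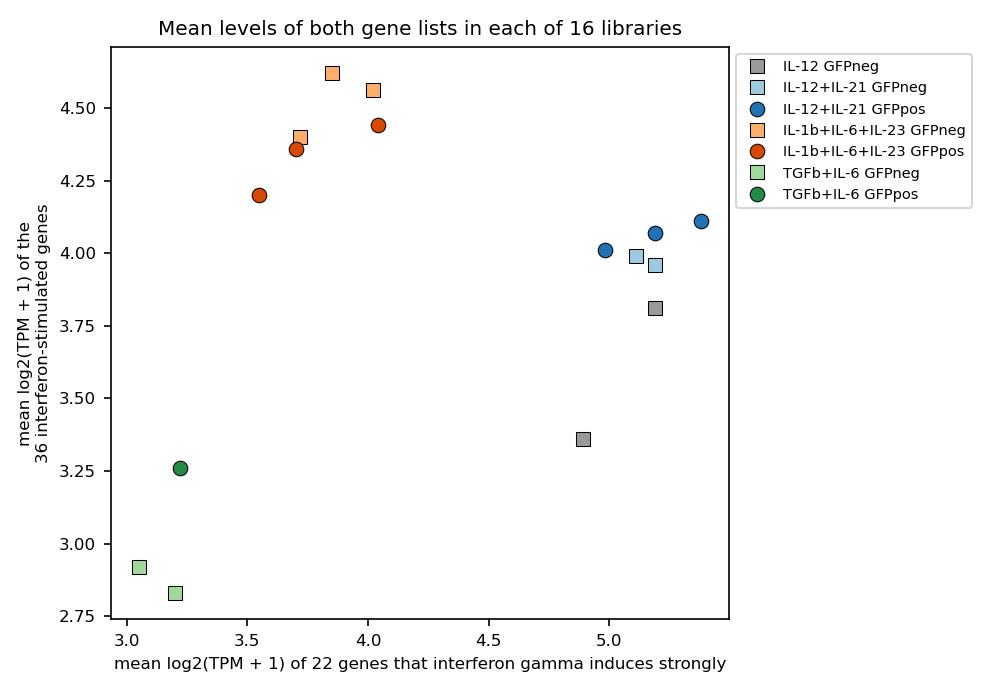
Mean log2(TPM + 1) of the 36 genes (vertical axis) against that of 22 genes strongly induced by interferon gamma (horizontal axis), with 1 point per library, squares for GFPneg and circles for GFPpos cells. IL-1b+IL-6+IL-23 libraries lie at the upper left, IL-12+IL-21 and IL-12 libraries at the right and TGFb+IL-6 libraries at the lower left.

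Of 21 receptors, kinases and factors of interferon signalling, 20 were tested, and those of the interferon gamma branch differed most. IFNGR1 was at 36.4 ± 4.92 TPM (n = 2) in IL-12+IL-21 GFPneg, 9.17 ± 3.32 (n = 3) in IL-1b+IL-6+IL-23 GFPneg and 69.3 ± 8.85 (n = 2) in TGFb+IL-6 GFPneg cells. IFNGR2 was at 2.28 ± 1.56 TPM in IL-12, 5.8 ± 0.764 in IL-12+IL-21, 14.6 ± 2.63 in IL-1b+IL-6+IL-23 and 23.3 ± 2.18 in TGFb+IL-6 GFPneg cells. IL-12+IL-21 against IL-1b+IL-6+IL-23 in GFPneg cells gave 3 genes higher (IFNGR1, IRF1 and IRF8) and IFNGR2 lower. IRF1, IRF8 and SOCS1 are also in the interferon gamma list, so the calls of IRF1 and IRF8 were already counted there. Of all genes, 2.16% were higher and 1.25% lower in that comparison. Of 19 genes of nucleic acid sensing, 15 were tested. TMEM173, which encodes the adaptor STING, and MYD88 were higher in IL-12+IL-21 than in IL-1b+IL-6+IL-23 GFPneg cells, by 1.98 ± 0.33 and 1.12 ± 0.26 (adjusted p = 0.00198 and 0.0246). Both were higher in IL-12 as well, by 3.03 ± 0.33 and 1.10 ± 0.26.

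A further list held 44 other interferon-stimulated genes, of which 30 were tested. Against TGFb+IL-6, 18 of 30 were higher in IL-1b+IL-6+IL-23, 17 in IL-12 and 17 in IL-12+IL-21 GFPneg cells, with 1, 3 and 0 lower. Of all genes, 10.6%, 15.8% and 4.81% were higher and 4.83%, 5.09% and 2.01% lower. SLFN1, of the Schlafen family, was higher by 3.48 ± 0.25 in IL-1b+IL-6+IL-23 (adjusted p = 2.19e-07), and MNDA, a nuclear protein, by 3.37 ± 0.40 in IL-12+IL-21. In IL-12+IL-21 against IL-1b+IL-6+IL-23 GFPneg cells 3 were higher (2.16% of all genes), LY6C1 and LY6C2 among them. HERC6 and SLFN1 were lower (1.25% of all genes), with a median of -0.16. In IL-12 against IL-1b+IL-6+IL-23, 2 were higher (4.3% of all genes) and 9 lower (2.71%), LY6E by -1.51 ± 0.19 and PHF11B by -3 ± 0.44. LY6E was lower in IL-12 than in TGFb+IL-6 as well (-2.12 ± 0.21, adjusted p = 4.47e-06).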

How the data were processed

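Bulk SMART-Seq2 RNA-seq of sorted mouse CD4 T cells was analysed, with 21 libraries in 7 groups named by the labels. The authors deposited 1 table of TPM per gene. Build GRCm38 and the tools RSEM 1.2.31, Bowtie2 2.2.9 and Trimmomatic 0.32 are named per the submitters' processing notes. The sources used here give neither reads per library nor the annotation or strand setting, so depth is unknown and no counting interval was possible. TPM is a share, so a large change in a few abundant genes moves the values of all others.

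Libraries with at least 7000 genes at 1 TPM were kept (16), as were genes at 1 TPM or more in at least 3 of them (9592). Values were tested as log2(TPM + 1) with limma 3.58.1 in R 4.3.3, with 1 mean per group, a shared spread and a trend, and with Benjamini-Hochberg adjustment over all genes of each of 11 comparisons. Errors of changes are SE and those of levels SD. This scale understates changes of low genes. The fit was tested on simulated data. Promoters came from RefSeq (GRCm38.p6) and gene positions from GENCODE M21.

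Members and lists were chosen with earlier results of these data known. Genes given in every library were the 12 with the smallest adjusted p, the 6 most abundant, the 4 with the largest ratio between groups, and a set of well known members. Of each further list at most 4 called genes per comparison are named, besides the receptors, kinases and factors always given. Some genes are not reported here. Alternatives were other pseudocounts, filters, scalings, spreads and weights, a replicate block, all 21 libraries, and leaving out each library. Fits without a library that leave 1 in a group assume that it varies like the other groups.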

Additional observations from a re-analysis of the deposited data

How the results depend on the processing

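The counts of genes called among the 36 (higher or lower, limma, adjusted p under 0.05) kept within 1.5 times the values reported under other pseudocounts and filters, with no trend, and after median-ratio scaling. With the spread taken only from the libraries compared, 1 gene was called in the reporter contrast of TGFb+IL-6, against 0. That setting also left 1 in IL-12+IL-21 against IL-12 and 7 in IL-12 against TGFb+IL-6. Quantile scaling gave 4 in IL-12+IL-21 against IL-12, and array weights gave 13 in the GFPpos comparison of cultures. With all 21 libraries, 0 were called in IL-12+IL-21 against IL-12, 2 against IL-1b+IL-6+IL-23 in GFPneg and 1 in GFPpos cells, 3 in IL-12 against IL-1b+IL-6+IL-23, 6 in IL-1b+IL-6+IL-23 against TGFb+IL-6, and 0 in both other comparisons with TGFb+IL-6. In that setting the change of IFI27L2A in IL-12 against TGFb+IL-6 turned to 4.29 (adjusted p = 0.534). The causes were not tested, but the 5 added libraries list only 0 to 30 of the 40 genes above 0.

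Without 1 library at a time, calls numbered 1 to 2 in IL-12+IL-21 against IL-12, 5 to 8 against IL-1b+IL-6+IL-23 in GFPneg and 4 to 6 in GFPpos cells, and 7 to 9 against TGFb+IL-6. They numbered 11 to 15 in IL-12 against IL-1b+IL-6+IL-23, 7 to 12 in IL-12 against TGFb+IL-6, and 21 to 24 when IL-1b+IL-6+IL-23 was set against TGFb+IL-6. In the reporter contrasts and the interaction they stayed at 0. Of the changes of the 21 members given by library, over all settings, 3488 kept their direction and side of the threshold, 131 lost and 44 gained a call, and 1 reversed. Of the medians of the 36, 136 stayed within the spread of replicates and 42 moved further.

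A replicate block gave 2, 8, 15, 26, 13, 16 and 8 calls in the comparisons of cultures, in the order IL-12+IL-21 against IL-12, both IL-12 cultures against IL-1b+IL-6+IL-23, the 3 against TGFb+IL-6 with IL-1b+IL-6+IL-23 first, and the GFPpos comparison, and 0 in the others. The labels do not say that a number marks a shared animal or day, and the numbers were not taken to pair the libraries. Over all genes, deviations correlated over 0.1 in 8 of 31 pairs with the same number (median r 0.04) and in 1 of 62 with different numbers (median -0.03). As a hint from the data, IL-1b+IL-6+IL-23 GFPneg and IL-12+IL-21 GFPpos, which no comparison sets against each other, had r of 0.25, 0.16 and 0.26 for replicates 1, 2 and 3. Both IL-12+IL-21 fractions had r of 0.16 and 0.12 for replicates 1 and 2. Over the interferon-stimulated genes that passed the rule alone, r was 0.62 for each of these pairs. It was -0.62 between replicates 1 and 2 of different fractions, values that mirror each other with 2 GFPneg libraries. The IL-1b+IL-6+IL-23 fractions had r of -0.01, -0.01 and 0.29 over these genes. The median over these genes was -0.01 for all pairs with the same number. The planned exclusion of libraries rich in ribosomal transcripts was not run, since it removes none of the 16.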

Other observations

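In the 5 libraries left out, between 0 and 30 of the 40 listed genes were above 0. The number was 27 in IL-12 GFPneg replicate 1, 30 in TGFb+IL-6 GFPpos replicate 2, 11 in IL-12+IL-21 GFPneg replicate 3, 4 in TGFb+IL-6 GFPpos replicate 3 and 0 in TGFb+IL-6 GFPneg replicate 3. IFI27L2A reached 21334 TPM in one of them, above the 8593 TPM that was its highest value in the 16 libraries used.

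Within groups, the genes outside all lists whose deviations followed those of the mean of the 36 most closely included SMOX, ZFP414, ARMT1, DCAF8, ZC3HAV1, RPS19-PS3, LRRC41, GCAT and PSTPIP1. Their Pearson r was 0.91 to 0.92 over 15 libraries, chosen as the highest among 4965 genes. ZC3HAV1 encodes the antiviral zinc finger protein ZAP.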
